A study of Mus musculus with 36 samples.

Results

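The 6 libraries described here, of 36 in the series, come from the 3 fibroblast lines that carry the Tbk1 N129D knock-in on both alleles, and they compare each line after 4 h of antimycin and oligomycin with the same line left untreated. The libraries were chosen by their titles: those labelled homozygous are E1.4, E2.2 plus E2.9, and each has 1 treated and 1 untreated library, so the comparison is 3 against 3 and paired by line. All 6 share the cell type, mouse embryonic fibroblasts grown in DMEM, and the N129D/N129D genotype. The treated libraries are called hom AO below and the untreated ones hom untreated. The labels name a line for each library but not whether lines come from separate embryos or clones. They give neither a dose nor a vehicle, so the untreated cells may differ from the treated ones in solvent as well. With a term for the line in the fit, p-values measure how treatment responses vary between lines of a genotype. This spread, pooled over the 10 lines of all 3 genotypes and over all treatments, may be technical. A point mutation does not show in gene counts, so the genotype could not be checked here. The hom response was also set against that of 3 wild-type (WT) and 4 heterozygous (het) lines under the same 2 treatments, and against the 3 hom libraries treated for 4 h with poly(I:C), a mimic of viral RNA; the other 6 libraries of the series carry a density label and were not used.

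Antimycin A blocks electron transfer in respiratory complex III and oligomycin blocks the proton channel of the ATP synthase, so together they stop respiration and collapse the membrane potential of mitochondria. Cells are known to answer such damage in several ways: through the integrated stress response, in which a mitochondrial signal leads to phosphorylation of eIF2α and translation of the transcription factor ATF4; through mitophagy, in which the kinase PINK1 marks damaged mitochondria for autophagy; and through AMPK and the lysosomal factors TFEB and TFE3. TBK1, the kinase that carries the mutation, phosphorylates the mitophagy receptors OPTN and p62 (Sqstm1) and, in antiviral signalling, the transcription factor IRF3.

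The hom AO libraries held 4494826, 3689144 and 5320969 counts in the order E1.4, E2.2, E2.9, and the hom untreated libraries held 8024569, 7524657 and 7545449. This line order is kept for every set of 3 values below. A count of 3 reads, the floor used here, corresponds to 0.747, 0.788 and 0.573 CPM (reads scaled to a common library size) in the hom AO libraries and to 0.370, 0.376 and 0.378 CPM in the hom untreated ones. The AO and untreated libraries of line E1.4 stood apart from the others in the balance of short and long transcripts. Among 12492 protein-coding genes, split into 5 equal groups by exonic length, the median log2 CPM of the shortest group minus that of the longest group was −0.18 in the E1.4 AO library, against −1.51 and −1.56 in the AO libraries of E2.2 and E2.9. Untreated, it was −0.63 in E1.4, against −1.41 and −1.43, and the other 24 libraries of the fit lay between −1.57 and −1.11. The poly(I:C) library of line E1.4 was among these 24. Within line E1.4 the AO library was shifted further than the untreated one, so that genes with at most 2622 exonic bases had a median log2 ratio of AO to untreated of 0.30, against −0.05 and −0.06 in E2.2 and E2.9. The ribosomal RNA gene CT010467.1 was also high in the E1.4 AO library, with 6772 CPM against 1789 and 1039 CPM in the other 2 AO lines, and with 2004, 1286 and 1303 CPM untreated. The part that transcript length, RNA quality or the mixture of cells plays in the results was not tested. For AO against untreated, the count of each gene group is therefore given with and without line E1.4. Counts without E2.2 or E2.9 are given at least where they moved the larger count of a group by more than 1.5 times.

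**Figure D1:**
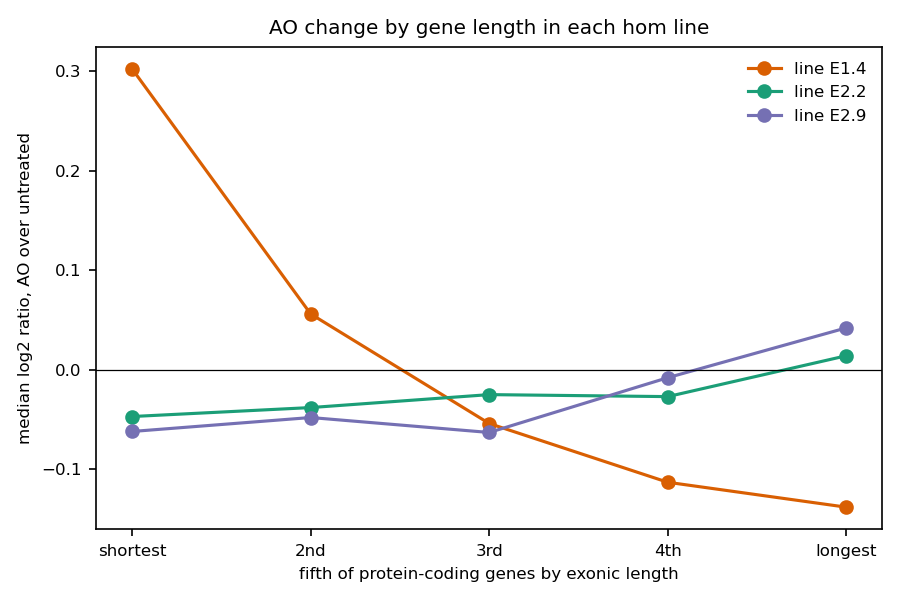
Median log2 ratio of hom AO to hom untreated CPM in each line, for 5 equal-sized groups of protein-coding genes ordered by exonic length in bases. Line E1.4 ran from 0.30 in the shortest group to −0.14 in the longest, while E2.2 and E2.9 stayed between −0.06 and 0.04.

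Markers of fibroblasts were abundant in all 6 libraries, with summed CPM over 12 genes of 5600, 4883 and 4993 in hom AO and of 7823, 8066 and 7638 in hom untreated; 7 of the 12 fell with AO and none rose. Summed macrophage markers were 6.72, 3.68 and 161 CPM in hom AO and 4.56, 2.13 and 244 CPM in hom untreated, so line E2.9 carried them under both treatments, and none of the 13 passed the test. Ptprc, the common leukocyte antigen, and the complement genes C1qa, C1qb and C1qc were at 0 in lines E1.4 and E2.2. Of the 7 endothelial markers, Tie1 was at 0 and Pecam1, Cdh5 and Emcn lay under the floor, and none of these was tested. Tek and Egfl7 did not pass, with log2 changes of −0.18 and −0.01. Kdr, the VEGF receptor, was the 1 that rose (log2 change 2.02 ± 0.28 SE, edgeR adjusted p = 2.36e-05). It had 14.9, 10.2 and 15.8 CPM in hom AO against 4.93, 2.01 and 3.40 CPM in hom untreated. In bulk libraries such as these, fewer cells of a type and less RNA per cell cannot be told apart.

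AO changed 3965 of the 13364 genes tested in hom lines at an adjusted p under 0.05 in edgeR's quasi-likelihood test with Benjamini-Hochberg adjustment, or 29.7%. Of these, 1954 rose, which is 14.6% of the genes tested, and 2011 fell, which is 15%. The 3 lines moved the same way for 1900 of the 1954 and for 1970 of the 2011. Most changes were small: 234 genes rose and 553 fell at least 2-fold, and 30 and 79 did so at least 4-fold. The median log2 change was 0.54 among genes that rose, −0.68 among those that fell and −0.01 among all genes tested, and a log2 change below always means hom AO over hom untreated. In 2900 genes, or 21.7%, the CPM of the 3 hom AO lines did not overlap that of the 3 untreated lines. The count depends on treating the lines as pairs: without the line term 1749 genes passed, 983 higher and 766 lower. It also depends on the shared estimate of the spread: with the 9 hom libraries fitted alone and paired, 1318 passed, 641 higher and 677 lower. Without line E1.4, 1952 rose and 2143 fell among the genes tested in both fits, and 1530 and 1663 of these were called the same way with all 3 lines.

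Stress genes with a known link to ATF4 led the increases among genes whose mean log2 CPM reached 1 and whose 3 lines moved alike, to which the largest changes below are limited. Gdf15, a secreted stress hormone at chr8:70629393-70632456 (minus strand, GRCm38), had 15.9, 11 and 6.49 CPM in hom AO against 0.493, 1.63 and 1.26 CPM in hom untreated. Its lowest treated line was above its highest untreated line by several-fold, and its log2 change was 3.23 ± 0.38 SE (edgeR adjusted p = 4.56e-06). Fgf21, another stress hormone, reached 4.73, 3.94 and 3.82 CPM in hom AO against 0.739, 0.376 and 0.504 CPM in hom untreated (log2 change 2.91 ± 0.55, edgeR adjusted p = 0.000479), and its untreated values lay close to the floor. Atf3, a transcription factor of the ATF family at chr1:191170296-191218039 (minus strand), had 126, 91.7 and 109.8 CPM in hom AO against 21.4, 10.5 and 15.2 CPM in hom untreated, with a log2 change of 2.83 ± 0.24 (edgeR adjusted p = 1.77e-07). Hmox1, the heme oxygenase at chr8:75093621-75100589 (plus strand), had 255, 566 and 384 CPM in hom AO and 49.9, 64.1 and 63.7 CPM in hom untreated, a 6.51-fold rise (log2 change 2.7 ± 0.18). Ppp1r15a, also known as GADD34, directs the phosphatase that reverses eIF2α phosphorylation; it lies at chr7:45522916-45526268 (minus strand) and had 423, 376 and 366 CPM in hom AO against 76.4, 55.8 and 70.9 CPM in hom untreated (5.78-fold, log2 change 2.53 ± 0.15). The groups of these 5 genes did not overlap.

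Ccl20, Flvcr2, Maff and AA467197 complete the largest increases together with Gm8355. Ccl20, a chemokine, had 37.4, 29.4 and 10.5 CPM in hom AO against 2.71, 5.65 and 2.27 CPM in hom untreated. Maff, a small Maf transcription factor, had 139, 84.8 and 108 CPM in hom AO against 42.4, 16.3 and 17.1 CPM in hom untreated. Gm8355 rested on 1 line: it had 473, 3.42 and 3.06 CPM in hom AO against 38.2, 2.76 and 2.02 CPM in hom untreated, and without E1.4 its log2 change was 0.40 and no longer passed, against 2.67 ± 0.80 with all 3 lines.

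The largest decreases were those of Medag, C1qtnf1, Bmf, Gprin3, Gas1, Txnip, Skida1, Gm10778, Tor4a and E130317F20Rik. Medag, an adipogenesis gene at chr5:149411749-149431723 (plus strand), had 0, 6.83 and 3.25 CPM in hom AO against 21.2, 73.7 and 31.6 CPM in hom untreated, a log2 change of −3.64 ± 0.42 (edgeR adjusted p = 3.64e-06). Gas1, a membrane protein that arrests growth and acts as a Hedgehog co-receptor, lies at chr13:60174405-60177365 (minus strand); it had 11.7, 26.3 and 8.79 CPM in hom AO and 66.9, 147 and 79.8 CPM in hom untreated (log2 change −2.71 ± 0.18). Txnip, an inhibitor of glucose uptake at chr3:96557957-96561883 (plus strand), had 16.2, 9.98 and 10.9 CPM in hom AO and 100.2, 81.7 and 46.1 CPM in hom untreated (log2 change −2.59 ± 0.24, edgeR adjusted p = 4.35e-07). All 10 genes were lower in every line under AO with no overlap between the groups.

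**Figure D2:**
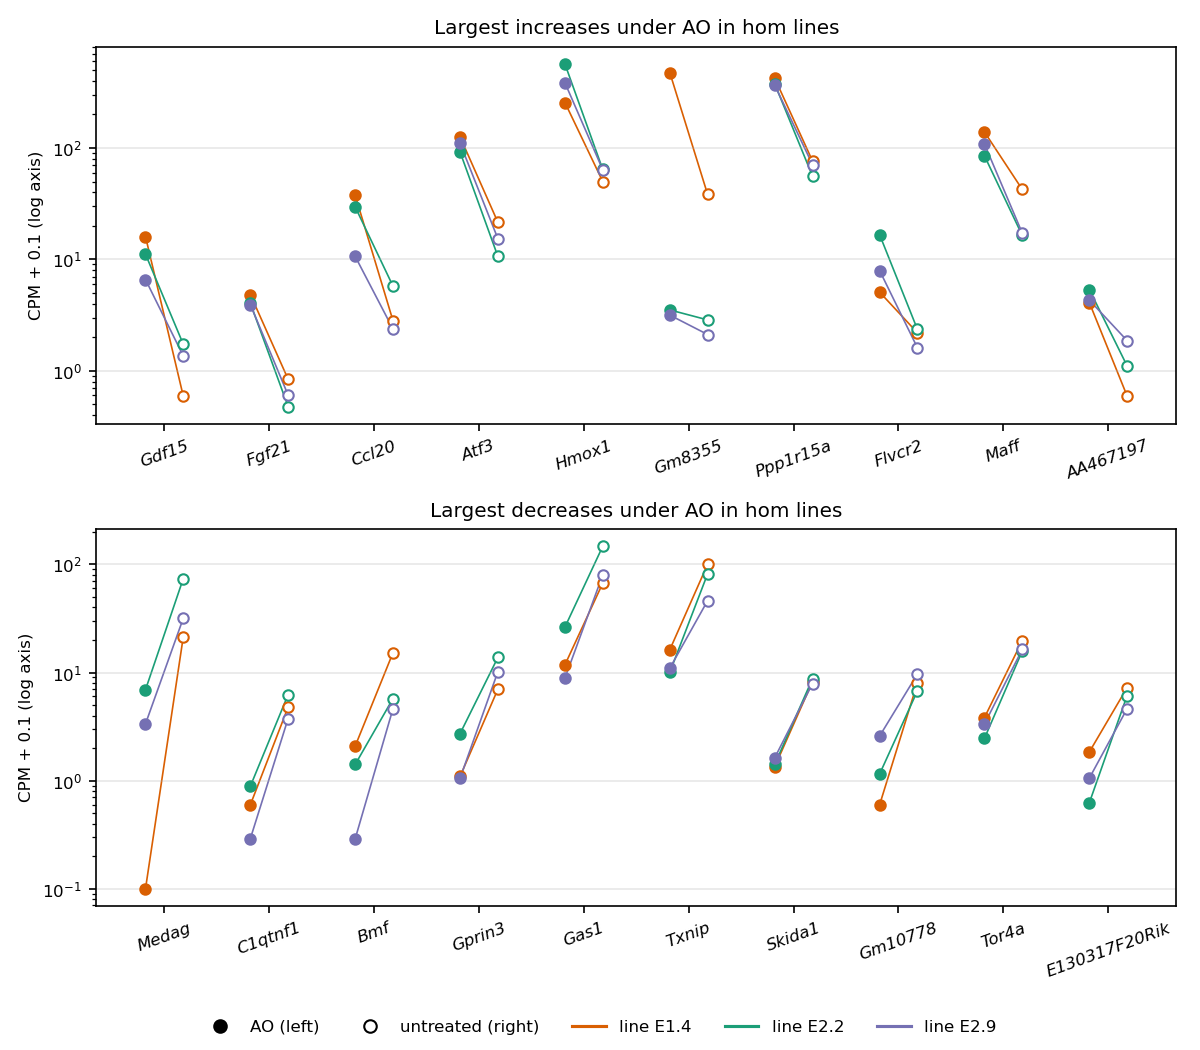
CPM plus 0.1 on a log axis of the 10 genes with the largest increase and the 10 with the largest decrease, with hom AO lines as filled points on the left of each gene and hom untreated lines as open points on the right, coloured by line. Gm8355 is the 1 gene of the 20 whose treated and untreated lines overlap, with 3.42 and 3.06 CPM in treated E2.2 and E2.9 against 38.2 CPM in untreated E1.4.

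Members of 38 gene lists were then read against the shares of all genes that rose (14.6%) or fell (15%). The lists group genes by known function and are described by counts and by their median log2 change.

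**Figure D3:**
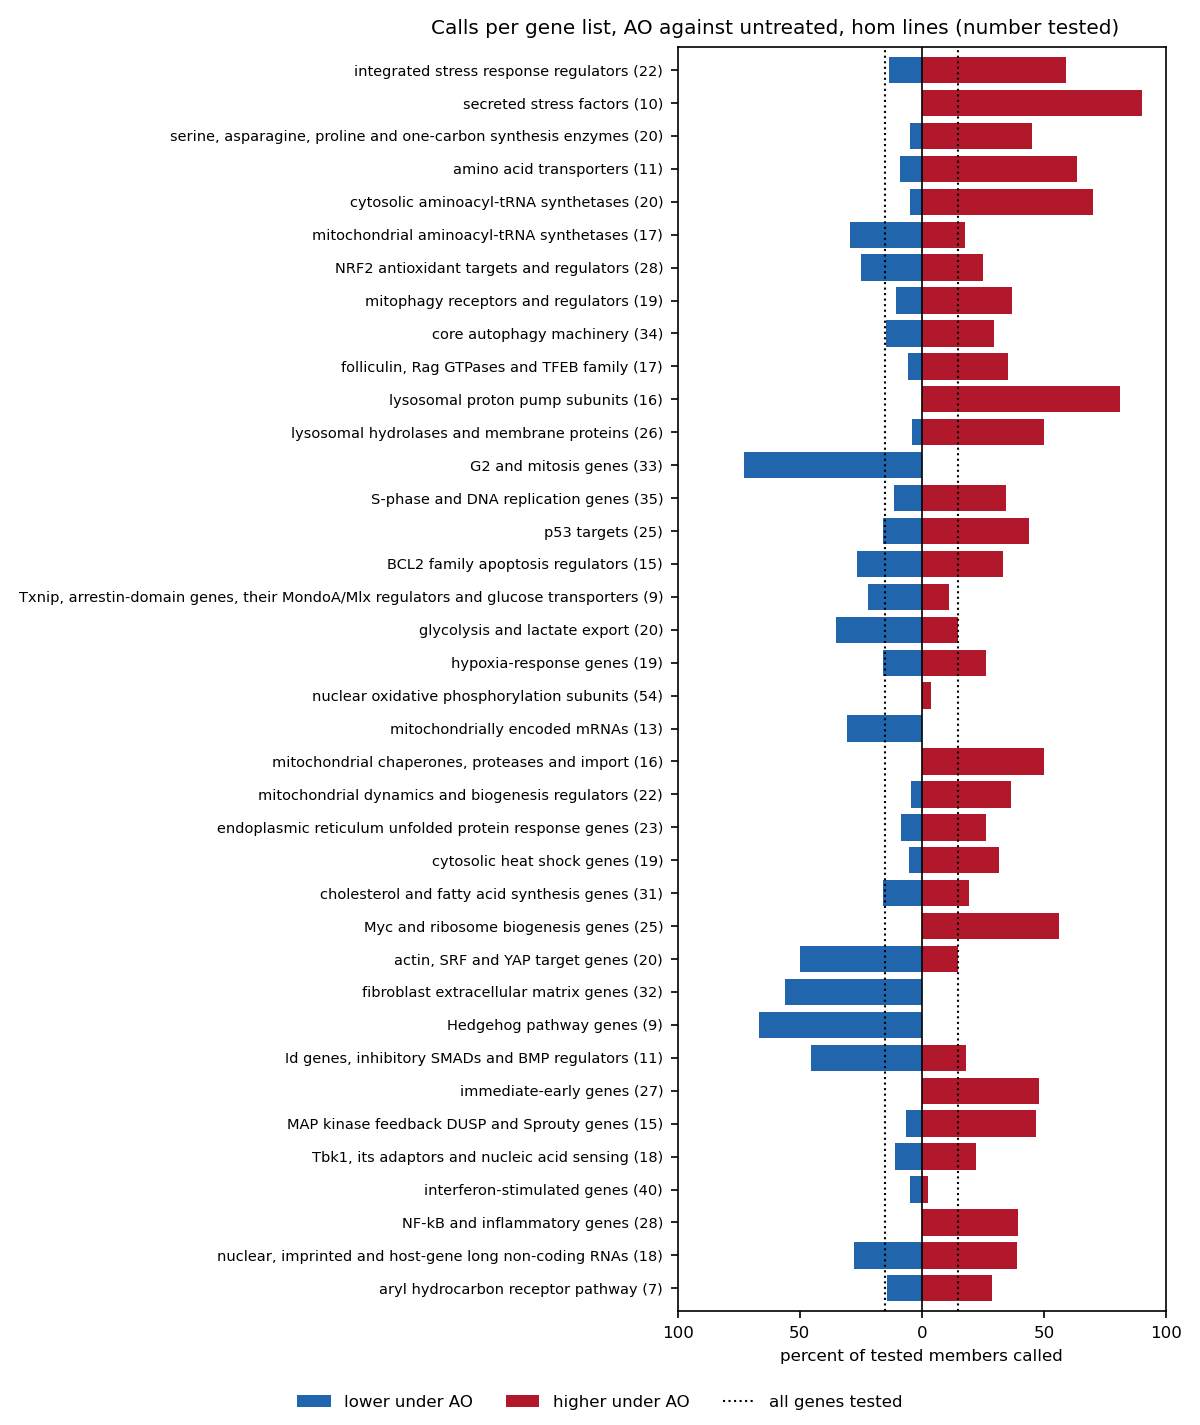
Percent of the tested members of each list that fell (left) or rose (right) in hom AO against hom untreated lines, with dotted lines at 15% and 14.6%, the shares of all genes tested. The V-ATPase, amino acid transport, cytosolic tRNA synthetase and secreted stress factor lists reach furthest to the right, and the G2 and mitosis list furthest to the left.

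Among 22 regulators of the integrated stress response, 13 rose and 3 fell, with a median log2 change of 0.73; without line E1.4 the counts were 12 and 3, without E2.2 and without E2.9 they were 8 and 3, and without the line term 8 and 2. Atf4, the factor at the centre of the pathway, had 1531, 860.5 and 888 CPM in hom AO against 731, 501 and 497 CPM in hom untreated (log2 change 0.90 ± 0.15). Ddit3, which encodes the ATF4 target CHOP, had 492, 228 and 211 CPM in hom AO against 103, 61.5 and 67.9 CPM in hom untreated (log2 change 1.95 ± 0.24, edgeR adjusted p = 9e-06). In both genes every treated line was above every untreated line, and E1.4 was the highest line under either treatment. Cebpg, a dimer partner of ATF4, rose by 1.03 ± 0.12, and Cebpb, another factor of that family, by 1.58 ± 0.27. Trib3, a pseudokinase induced by ATF4 and CHOP, had a log2 change of 1.24 ± 0.44 (edgeR adjusted p = 0.0399) that did not pass without line E1.4 (1.21), and Chac1, a glutathione-degrading enzyme, had 0.92 ± 0.41 and did not pass (edgeR adjusted p = 0.101) although its groups did not overlap. Of the mitochondrial relay to this pathway, Oma1, the inner membrane protease, fell (log2 change −0.92 ± 0.21), and Dele1, its substrate, was at 42.8, 43.6 and 39.5 CPM in hom AO and 41.1, 36.8 and 39.3 CPM in hom untreated. Of the eIF2α kinases, Eif2ak3 (PERK) fell by 0.54 ± 0.16, and Eif2ak1 (HRI), Eif2ak2 (PKR) and Eif2ak4 (GCN2) did not pass, with log2 changes of −0.20 ± 0.09, −0.33 ± 0.15 and 0.06 ± 0.16.

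Of 11 amino acid transporters, 7 rose and 1 fell (median 0.89; 10 and 0 without line E1.4). Slc3a2, the heavy chain shared by several exchangers, had 1259, 851 and 795 CPM in hom AO against 392, 273 and 278 CPM in hom untreated (log2 change 1.61 ± 0.10, edgeR adjusted p = 5.75e-09). Its cystine-importing partner Slc7a11 had 87.4, 164 and 211 CPM in hom AO against 43.4, 64.0 and 71.4 CPM in hom untreated (log2 change 1.33 ± 0.27), and the arginine transporter Slc7a1 rose by 1.46 ± 0.21. The 1 transporter that fell, Slc43a1, had a log2 change of −1.01 ± 0.29, and −0.70 without line E1.4, where it did not pass. Of 20 genes of amino acid and one-carbon synthesis, 9 rose and 1 fell (median 0.35; 13 and 1 without line E1.4, 3 and 1 without the line term). Got1, the cytosolic aspartate aminotransferase, had 189, 202 and 179 CPM in hom AO against 102, 75.8 and 84.2 CPM in hom untreated (log2 change 1.13 ± 0.12). Mthfd2, a mitochondrial folate enzyme, rose by 1.09 ± 0.15, Asns, the asparagine synthetase, by 0.83 ± 0.16 and Psph, the last enzyme of serine synthesis, by 0.83 ± 0.19. Glul, the glutamine synthetase, was the member that fell (−0.68 ± 0.11). Shmt2, the mitochondrial serine hydroxymethyltransferase, had 497, 450 and 425 CPM in hom AO and 473, 351 and 342 CPM in hom untreated and did not pass (0.24 ± 0.14).

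The aminoacyl-tRNA synthetases load amino acids onto tRNA, in the cytosol and separately in mitochondria. Of 20 cytosolic enzymes, 14 rose and 1 fell (median 0.53; 14 and 1 without line E1.4, 7 and 1 without the line term), whereas of 17 mitochondrial enzymes 3 rose and 5 fell (median −0.00; 2 and 4 without line E1.4, 2 and 3 without E2.2, 2 and 2 without E2.9). Yars, the tyrosyl enzyme, had 388, 328 and 328 CPM in hom AO against 209, 167 and 172 CPM in hom untreated (log2 change 0.93 ± 0.09, edgeR adjusted p = 4.35e-07). Sars, the seryl enzyme, had 791, 609 and 625 CPM in hom AO against 432, 302 and 339 CPM in hom untreated (log2 change 0.92 ± 0.09). Treated and untreated lines did not overlap in either gene. Qars, the glutaminyl enzyme, was the cytosolic member that fell (−0.40 ± 0.08). Among the mitochondrial enzymes Fars2 rose (0.67 ± 0.14) and Iars2 fell (−0.33 ± 0.08).

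ATF4 is known to bind composite C/EBP-ATF elements, and the promoters of Atf3 and Yars are shown because both genes rose and both hold the motif TGATGNAA in the window of 250 bases before to 50 bases after the RefSeq start (build GRCm38.p6). The sequences run 5′ to 3′ on the gene's strand, with the motif, on either strand, in capitals; Atf3 is chr1:191183284-191183583 (minus strand) and Yars is chr4:129189653-129189952 (plus strand).
Atf3: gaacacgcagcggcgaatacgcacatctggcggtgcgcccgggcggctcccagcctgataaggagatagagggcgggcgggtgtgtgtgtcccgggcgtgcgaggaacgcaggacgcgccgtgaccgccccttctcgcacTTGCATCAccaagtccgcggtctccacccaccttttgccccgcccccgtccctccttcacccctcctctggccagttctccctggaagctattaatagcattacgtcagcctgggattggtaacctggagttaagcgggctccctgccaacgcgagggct
Yars: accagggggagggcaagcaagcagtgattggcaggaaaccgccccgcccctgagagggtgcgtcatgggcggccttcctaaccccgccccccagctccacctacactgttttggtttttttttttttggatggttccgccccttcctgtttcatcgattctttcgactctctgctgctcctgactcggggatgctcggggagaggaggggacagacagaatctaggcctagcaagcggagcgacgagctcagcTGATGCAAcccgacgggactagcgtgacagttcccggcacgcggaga
The motif was searched on both strands. It occurred in 4.06% of all 27025 mouse promoters of that length, in 3.49% of the 1518 genes that rose and had a promoter in the table, in 1.75% of the 1546 that fell and in 1.91% of the 7014 tested genes that did neither. Among members that rose and had a promoter, 5 of 9 cytosolic synthetases held it (Aars, Gars, Iars, Tars and Yars), as did 3 of 11 stress response regulators (Atf3, Trib3 and Nupr1), 2 of 5 transporters (Slc7a11 and Slc1a4) and 2 of 8 synthesis genes (Asns and Got1). Of 8 secreted stress factors that rose and had a promoter, 1 held it (Fgf21). Among members that did not pass, 1 of 5 regulators and 1 of 7 synthesis genes held it. A match describes the letters of the window and not a bound site.

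Secreted factors rose almost throughout: 9 of 10 members rose and none fell (median 1.51; 8 and 0 without line E1.4). Besides Gdf15 and Fgf21, Vegfa, the angiogenic growth factor, had 222, 354 and 304 CPM in hom AO against 109.8, 103 and 122 CPM in hom untreated (log2 change 1.39 ± 0.14, edgeR adjusted p = 9.56e-07). Hbegf and Areg, both ligands of the EGF receptor, rose by 1.20 ± 0.14 and 1.85 ± 0.29. Stc2, a stanniocalcin, rose by 1.64 ± 0.22. Angptl4, an inhibitor of lipoprotein lipase, was the member that did not pass, at 0.747, 0.525 and 0.382 CPM in hom AO against 2.22, 1.25 and 1.13 CPM in hom untreated (−1.49 ± 0.60, edgeR adjusted p = 0.0674); its treated values lay at or under the floor.

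The NRF2 list, genes of the antioxidant program controlled by the factor that Nfe2l2 encodes, moved in both directions. Of 28 members, 7 rose and 7 fell (median 0.08; 10 and 7 without line E1.4, 6 and 3 without the line term). Those that rose were Hmox1, Sqstm1, Mafg, Nfe2l2, Slc7a11, Txnrd1 and Ftl1. Mafg, the small Maf partner of NRF2, had 160.4, 189.7 and 205 CPM in hom AO against 69.6, 70.0 and 93.9 CPM in hom untreated (log2 change 1.26 ± 0.12). Nfe2l2 itself had 201, 235 and 224 CPM in hom AO against 145, 128 and 134 CPM in hom untreated (log2 change 0.69 ± 0.11), and Ftl1, the ferritin light chain that stores iron, rose by 0.41 ± 0.14. Every treated line was above every untreated line for Mafg and Nfe2l2. Those that fell include 2 enzymes of the pentose phosphate pathway, G6pdx (−0.92 ± 0.12) and Pgd (−0.39 ± 0.09), together with Cat, Gsr, Gstm1, Keap1 and Nqo1. Nqo1, a quinone reductase widely used as an NRF2 readout, had 9.71, 29.2 and 31.7 CPM in hom AO against 14.5, 34.9 and 41.8 CPM in hom untreated; its groups overlapped and its change of −0.40 ± 0.15 (edgeR adjusted p = 0.0495) did not pass without line E1.4. Gclm, a subunit of the enzyme that starts glutathione synthesis, had a log2 change of 0.21 ± 0.08 and did not pass.

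NRF2 and its Maf partners bind antioxidant response elements, and the promoters of Mafg and Nfe2l2 are shown because both genes rose and both windows hold TGACNNNGC, a core of that element. The sequences are from RefSeq (GRCm38.p6), 5′ to 3′ on the gene's strand, with the motif on either strand in capitals; Mafg is chr11:120633498-120633797 (minus strand) and Nfe2l2 is chr2:75704614-75704913 (minus strand).
Mafg: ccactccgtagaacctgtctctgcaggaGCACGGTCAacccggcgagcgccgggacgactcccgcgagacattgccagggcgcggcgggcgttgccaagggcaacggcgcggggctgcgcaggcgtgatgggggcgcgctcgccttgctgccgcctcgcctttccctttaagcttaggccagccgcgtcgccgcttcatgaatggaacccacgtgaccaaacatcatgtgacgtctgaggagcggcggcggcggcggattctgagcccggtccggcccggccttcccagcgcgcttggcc
Nfe2l2: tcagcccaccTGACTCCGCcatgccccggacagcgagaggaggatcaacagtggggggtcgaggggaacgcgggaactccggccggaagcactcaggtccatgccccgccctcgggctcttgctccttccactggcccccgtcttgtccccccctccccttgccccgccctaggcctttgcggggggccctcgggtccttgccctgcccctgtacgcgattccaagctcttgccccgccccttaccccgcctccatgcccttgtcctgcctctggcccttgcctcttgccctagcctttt
This short core occurred in 12.5% of all promoters, in 18.7% of the genes that rose, in 13.5% of those that fell and in 14.1% of the rest. In the NRF2 list it was present in 2 of 6 members that rose, 1 of 6 that fell and 5 of 11 that did neither.

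Tbk1 and the mitophagy receptor genes Sqstm1 and Optn rose, while 10 of 19 tested mitophagy genes did not pass. Tbk1, at chr10:121546455-121586787 (minus strand), had 56.0, 71.5 and 74.5 CPM in hom AO against 40.7, 46.3 and 48.4 CPM in hom untreated, a log2 change of 0.57 ± 0.13 (edgeR adjusted p = 0.00233). Sqstm1, the p62 receptor at chr11:50199366-50210827 (minus strand), had 954, 1025 and 883 CPM in hom AO against 422, 323 and 324 CPM in hom untreated (log2 change 1.43 ± 0.12, edgeR adjusted p = 1.12e-07). Optn, optineurin, at chr2:5020642-5064051 (minus strand), had 32.4, 29.4 and 26 CPM in hom AO against 20.1, 18.8 and 13.3 CPM in hom untreated (log2 change 0.75 ± 0.13). None of the 3 genes overlapped between treated and untreated lines. Of 19 tested mitophagy genes, 7 rose and 2 fell (median 0.08; 6 and 3 without line E1.4, 4 and 1 without E2.2). Tollip, a ubiquitin-binding adaptor, rose by 0.86 ± 0.13, Usp30, a mitochondrial deubiquitinase that opposes mitophagy, by 0.43 ± 0.12 and Mul1, a mitochondrial ubiquitin ligase, by 0.40 ± 0.12, while Calcoco1, a relative of the receptor NDP52, fell by 0.82 ± 0.14 and Fundc1, an outer membrane mitophagy receptor, by 0.39 ± 0.11. Pink1, the kinase that starts this form of mitophagy, did not pass, at 27.4, 12.9 and 13.4 CPM in hom AO and 26, 18.1 and 16 CPM in hom untreated (−0.19 ± 0.14, edgeR adjusted p = 0.313). In the list of 18 genes of TBK1 signalling, 4 rose and 2 fell (median −0.07; 4 and 1 without any 1 of the 3 lines). Besides Tbk1, Optn and Sqstm1, the adaptor Tank rose (0.66 ± 0.09). The 2 that fell were Mavs, the mitochondrial adaptor of RNA sensing (−0.53 ± 0.13), and Tlr3, an endosomal double-stranded RNA receptor (−1.29 ± 0.44; not passed without line E1.4).

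Of 34 core autophagy genes, 10 rose and 5 fell (median 0.15; 12 and 5 without line E1.4, 7 and 3 without E2.2, 6 and 3 without E2.9, 7 and 3 without the line term). Of the 10, 5 belong to the machinery that lipidates LC3: Atg12 (0.64 ± 0.09), Atg3 (0.64 ± 0.10), Atg5 (0.38 ± 0.10), Atg10 (0.66 ± 0.21) and Atg16l1 (0.37 ± 0.10), with Map1lc3b, an LC3 gene, at 162, 148 and 137 CPM in hom AO against 122, 113 and 103 CPM in hom untreated (0.40 ± 0.08). The decreases included the lipid kinase Pik3c3 (−0.46 ± 0.13), its regulatory subunit Pik3r4 (−0.56 ± 0.12) and the starting kinase Ulk2 (−0.49 ± 0.12). Uvrag, another partner of that lipid kinase, rose (0.82 ± 0.14).

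Flcn, folliculin, activates the Rag GTPases RagC and RagD; it lies at chr11:59791408-59810016 (minus strand) and had 70.0, 108 and 115 CPM in hom AO against 31.7, 35.3 and 36.8 CPM in hom untreated (log2 change 1.48 ± 0.14, edgeR adjusted p = 4.35e-07). Its partners Fnip1 and Fnip2 had 99.1, 202 and 228 CPM and 48.3, 84.6 and 91.5 CPM in hom AO, against 38.1, 62.0 and 62.8 CPM and 16.4, 25.7 and 27.7 CPM in hom untreated, and both had a log2 change of 1.67. No group overlapped in the 3 genes, and in all 3 the treated E1.4 line was the lowest treated one. Rragc, which encodes RagC, and Lamtor3, a subunit of the complex that anchors the Rags to the lysosome, rose by 1.14 ± 0.13 and 1.12 ± 0.12. Of the 17 genes of this list 6 rose and 1, the kinase gene Mtor, fell (−0.43 ± 0.11; list median 0.21; 5 and 2 without line E1.4).

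Of 16 subunits of the V-ATPase, the proton pump that acidifies lysosomes, 13 rose and none fell (median 0.69; 13 and 0 without line E1.4, 11 and 0 without the line term). Atp6v0b, a membrane subunit at chr4:117884326-117887333 (minus strand), had 183, 115 and 127 CPM in hom AO against 72.7, 48.9 and 52.3 CPM in hom untreated (log2 change 1.28 ± 0.11, edgeR adjusted p = 2.38e-07). Among subunits of the soluble sector, Atp6v1b2 rose by 1.11 ± 0.10, Atp6v1c1 by 1.08 ± 0.12 and Atp6v1h by 0.98 ± 0.09. Of 26 other lysosomal genes, 13 rose and 1 fell (median 0.25; 15 and 1 without line E1.4, 8 and 1 without E2.2, 5 and 0 without the line term). Neu1, the lysosomal sialidase, had 60.0, 39.9 and 33 CPM in hom AO against 23.5, 15.3 and 18 CPM in hom untreated (log2 change 1.21 ± 0.14). Clcn7, the chloride-proton exchanger, had 84.9, 128 and 112 CPM in hom AO against 56.8, 63.5 and 60.1 CPM in hom untreated (log2 change 0.84 ± 0.10), and Mcoln1, the lysosomal calcium channel, 43.8, 54.1 and 43.9 CPM in hom AO against 36.1, 30.6 and 32.1 CPM in hom untreated (0.52 ± 0.13). Treated lines were above untreated ones in each of the 3. Gusb, the β-glucuronidase, was the lysosomal gene that fell (−0.48 ± 0.10).

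TFEB and TFE3 are known to bind the element TCACGTGA, called CLEAR, which contains the E-box CACGTG. The promoters of Clcn7 and Atp6v0d1, a membrane-sector subunit of the V-ATPase, are shown because both genes rose (Atp6v0d1 by 0.87 ± 0.12) and both windows hold the full element, given in capitals. The sequences are from RefSeq (GRCm38.p6), 5′ to 3′ on the gene's strand; Clcn7 is chr17:25133141-25133440 (plus strand) and Atp6v0d1 is chr8:105566015-105566314 (minus strand).
Clcn7: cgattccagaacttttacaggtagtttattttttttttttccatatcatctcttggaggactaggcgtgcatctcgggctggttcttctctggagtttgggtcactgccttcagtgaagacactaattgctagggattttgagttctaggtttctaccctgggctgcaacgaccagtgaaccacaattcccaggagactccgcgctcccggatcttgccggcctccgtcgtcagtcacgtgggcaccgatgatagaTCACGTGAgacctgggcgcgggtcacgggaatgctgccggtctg
Atp6v0d1: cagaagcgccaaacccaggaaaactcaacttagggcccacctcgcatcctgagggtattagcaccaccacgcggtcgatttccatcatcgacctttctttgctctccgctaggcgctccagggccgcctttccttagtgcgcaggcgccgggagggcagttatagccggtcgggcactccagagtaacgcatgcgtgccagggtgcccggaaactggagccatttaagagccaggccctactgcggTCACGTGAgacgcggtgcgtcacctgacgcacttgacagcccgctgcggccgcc
On either strand the element occurred in 1.01% of all promoters, in 3.56% of the genes that rose, in 0.582% of those that fell and in 1.91% of the rest. The E-box alone was present in 7.24% of all promoters, and in 16.4%, 6.53% and 9.78% of the genes that rose, that fell and that did neither. Among members that rose, 3 of 10 lysosomal genes (Gla, Mcoln1 and Clcn7), 2 of 9 V-ATPase subunits (Atp6v0d1 and Atp6v1a), 1 of 8 autophagy genes (Atg3) and 0 of 5 genes of the folliculin list held CLEAR in this window. Among members that did not pass, 1 of 2 V-ATPase subunits, 1 of 9 lysosomal genes and 0 of 15 autophagy genes held it.

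**Figure D4:**
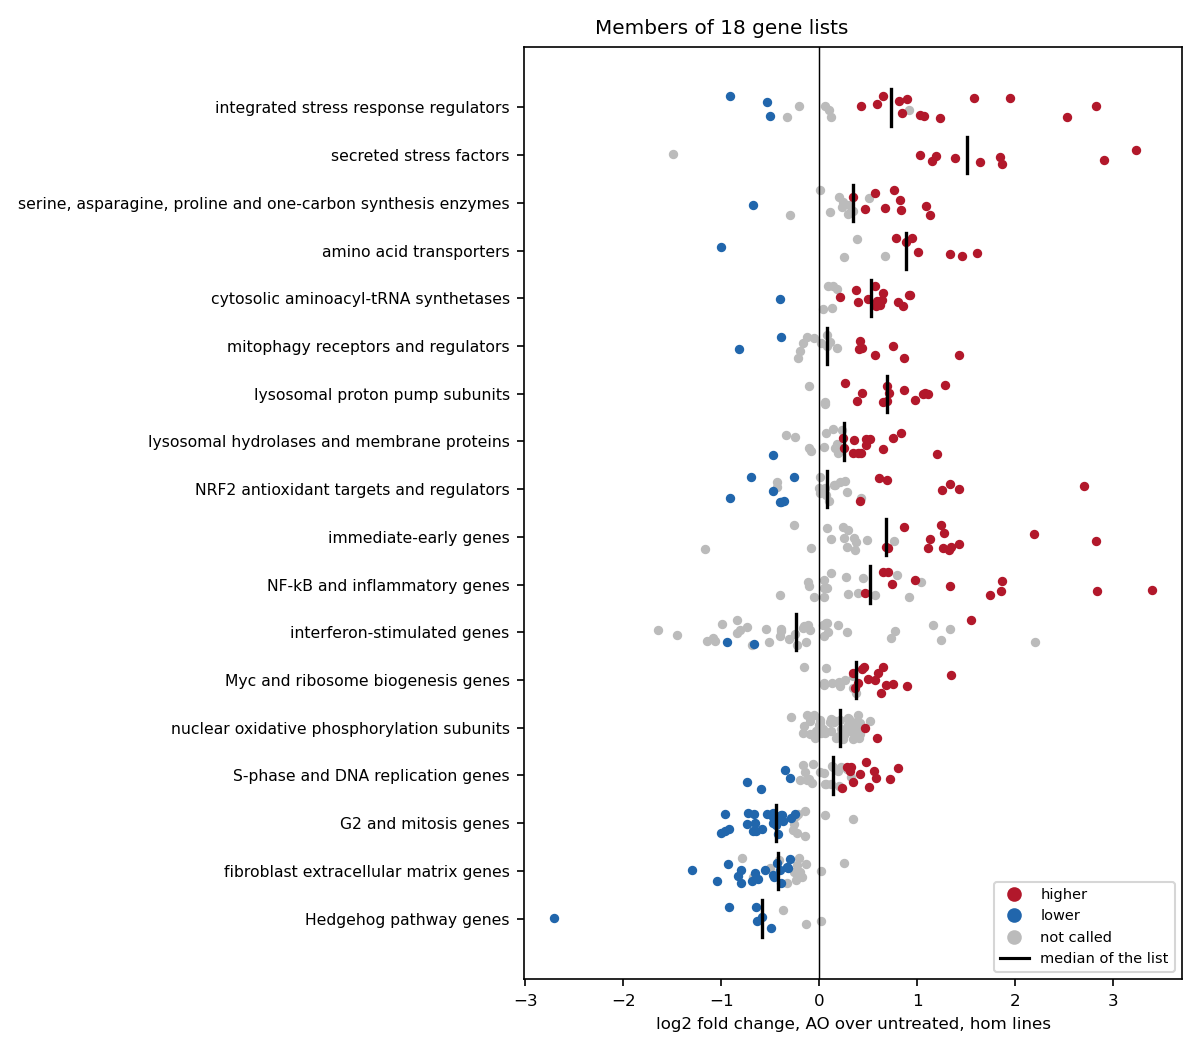
Log2 change in hom lines, AO over untreated, of each tested member of 18 lists, with members that rose in red, those that fell in blue, the others in grey and a bar at the list median. The cytosolic tRNA synthetase median lies at 0.53 and the V-ATPase median at 0.69, while the G2 and mitosis median lies at −0.45.

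Few genes of the respiratory chain itself passed the test at this time. Of 54 nuclear-encoded subunits, 2 rose and none fell, with a median log2 change of 0.21 that was −0.01 without line E1.4, where 1 rose and 2 fell; without E2.2, 6 rose and none fell. These genes are short, with a median exonic length of 1918 bases against 4617 for all protein-coding genes tested. Atp5e, a subunit of the ATP synthase, had 238, 54.4 and 65.1 CPM in hom AO against 108, 52.3 and 52.4 CPM in hom untreated; its log2 change was 0.59 ± 0.22 with line E1.4 and 0.18 without it, where it did not pass. Cycs, cytochrome c, rose with and without that line, by 0.46 ± 0.13 and 0.36. Of 13 genes encoded by mitochondrial DNA, 4 fell and none rose (median −0.31; 3 fell and the median was −0.16 without line E1.4). mt-Nd1, a complex I subunit, had 490.1, 504 and 585 CPM in hom AO against 997, 862 and 664 CPM in hom untreated (−0.66 ± 0.11). mt-Nd5, another, had 213, 300.2 and 279.8 CPM in hom AO against 427, 612 and 379 CPM in hom untreated (−0.82 ± 0.14). Of 16 mitochondrial chaperones, proteases and import genes, 8 rose and none fell (median 0.29; 6 and 1 without line E1.4, 5 and 0 without E2.2, 4 and 0 without E2.9, 2 and 0 without the line term). Hspa9, the matrix Hsp70, had 1848, 2006 and 2258 CPM in hom AO against 1257, 1240.0 and 1326 CPM in hom untreated (0.67 ± 0.07), and Lonp1, the matrix protease, rose by 0.60 ± 0.07.

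Mitotic genes fell. Of 33 genes of G2 and mitosis, 24 fell and none rose (median −0.45; 28 and 0 without line E1.4, 18 and 0 without the line term). Plk1, the mitotic kinase at chr7:122159439-122169873 (plus strand), had 57.8, 73.3 and 59.6 CPM in hom AO against 133, 132 and 117 CPM in hom untreated (−1.01 ± 0.09, edgeR adjusted p = 3.01e-07). Kif20a, a kinesin of cytokinesis, had 109, 165 and 158 CPM in hom AO against 263, 299 and 278 CPM in hom untreated (−0.96 ± 0.11), and the kinesin Kif2c fell by the same amount (−0.96 ± 0.09). The 3 genes had no overlap between the groups. Mki67, the proliferation marker, fell by 0.47 ± 0.12, with 262, 262 and 279 CPM in hom AO against 279, 442 and 403 CPM in hom untreated. Cell cycle genes of mitosis often hold TTTGAA, the core of the element called CHR: it was present in 18.1% of all promoters, 12.5% of the tested genes that fell, 15 of 19 mitotic genes that fell and 6 of 8 that did not pass.

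Of 35 genes of S phase, 12 rose and 4 fell (median 0.14; 12 and 3 without line E1.4, 8 and 2 without E2.9, 4 and 2 without the line term). Cdt1, a replication licensing factor, had 165, 98.0 and 106 CPM in hom AO against 83.2, 62.5 and 62.6 CPM in hom untreated (0.81 ± 0.12), and Orc6, an origin recognition subunit, rose by 0.72 ± 0.11. Those that fell were Tk1, thymidine kinase (−0.60 ± 0.09), Rrm2, a subunit of ribonucleotide reductase (−0.34 ± 0.07), and the E cyclins Ccne1 (−0.74 ± 0.24) and Ccne2 (−0.30 ± 0.10). Of 25 p53 targets, 11 rose and 4 fell (median 0.28; 10 and 3 without line E1.4, 8 and 2 without E2.2, 5 and 2 without the line term). Gadd45a, a growth arrest gene, had 237, 109 and 111 CPM in hom AO against 45.1, 30.5 and 30.5 CPM in hom untreated (2.05 ± 0.28). Cdkn1a, the p21 inhibitor of cyclin-dependent kinases, rose by 0.63 ± 0.14, and Mdm2, the ligase that degrades p53, by 0.76 ± 0.12, while Sesn1 (−0.81 ± 0.18), Pidd1 (−1.07 ± 0.24), Phlda3 (−0.72 ± 0.22) and Zmat3 (−0.48 ± 0.16) fell.

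The BCL2 family, which controls permeabilization of the outer mitochondrial membrane, moved in both directions, also among its death-promoting BH3 members. Of 15 tested genes, 5 rose and 4 fell (median −0.12; 4 and 4 without line E1.4, 3 and 3 without E2.2). Pmaip1 (Noxa) had 57.8, 35.7 and 67.8 CPM in hom AO against 29.7, 23.7 and 30.1 CPM in hom untreated (0.92 ± 0.10). Hrk was low throughout, with 2.24, 2.36 and 3.82 CPM in hom AO against 0.493, 0 and 0.378 CPM in hom untreated; it passed (edgeR adjusted p = 0.000902), and its untreated values lay at or near the floor. Bmf fell, with 1.99, 1.31 and 0.191 CPM in hom AO against 15.2, 5.65 and 4.53 CPM in hom untreated (−2.98 ± 0.55, edgeR adjusted p = 0.000386), and Bcl2l11 (Bim) fell by 0.78 ± 0.20. The pro-survival gene Mcl1 rose by 0.28 ± 0.09.

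Txnip was described above among the largest decreases. Its paralog Arrdc4, like Txnip a known target of the glucose-sensing factor MondoA, had 7.97, 7.62 and 3.63 CPM in hom AO and 8.26, 6.52 and 5.29 CPM in hom untreated and did not pass (−0.10 ± 0.28, edgeR adjusted p = 0.829). The more distant arrestin-domain gene Arrdc3 fell, with 13.7, 17.3 and 15.1 CPM in hom AO against 28.2, 72.4 and 43.4 CPM in hom untreated (−1.57 ± 0.25). Slc2a1, which encodes the glucose transporter GLUT1, rose by 0.45 ± 0.13, the 1 member of this list of 9 to do so; Txnip and Arrdc3 were the 2 that fell (2 rose and 3 fell without line E1.4, 0 and 3 without E2.2). Of 20 genes of glycolysis and lactate transport, 3 rose and 7 fell (median −0.18; 3 and 10 without line E1.4, 2 and 3 without the line term). The monocarboxylate transporter Slc16a1 rose by 0.90 ± 0.09, the enolase Eno2 by 1.47 ± 0.19 and the hexokinase Hk2 by 0.79 ± 0.16. The phosphofructokinases Pfkl (−0.64 ± 0.11) and Pfkm (−0.65 ± 0.12) and the other hexokinase Hk1 (−0.47 ± 0.11) fell. Of 19 hypoxia genes, 5 rose and 3 fell (median −0.01; 5 and 3 without line E1.4), among them Vegfa, Ero1l (0.86 ± 0.13) and Ndrg1 (0.73 ± 0.12) up and Narf (−1.81 ± 0.25), Mxi1 (−0.58 ± 0.14) and the prolyl hydroxylase Egln3 (−0.68 ± 0.20) down.

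Matrix genes of the fibroblast fell: 18 of 32 fell and none rose (median −0.42). Without line E1.4, 15 fell and the median was −0.28, and without the line term 3 fell. The collagen gene Col3a1, at chr1:45311538-45349706 (plus strand), had 257, 413 and 213 CPM in hom AO against 699, 1074 and 452 CPM in hom untreated (−1.30 ± 0.16, edgeR adjusted p = 6.43e-06). Col1a2, a chain of type I collagen, had 655, 999 and 1375 CPM in hom AO against 1434, 1931 and 2279 CPM in hom untreated (−0.93 ± 0.11), and its partner Col1a1 fell by 0.80 ± 0.13. For Col3a1 and Col1a2 the highest treated line stayed below the lowest untreated one. These are long genes, with a median exonic length of 6591 bases, and 4 members passed only with line E1.4, since Bgn, Col4a1, Loxl2 and Fbln2 did not pass without it. Of 20 actin and SRF or YAP target genes, 10 fell and 3 rose (median −0.24; 11 and 3 without line E1.4, 5 and 3 without E2.2, 2 and 1 without the line term). Vcl, vinculin, had 200.2, 283 and 304 CPM in hom AO against 379, 481 and 479.9 CPM in hom untreated (−0.77 ± 0.11), and Actb fell by 0.56 ± 0.16. The YAP targets Ccn1, Ccn2 and Lats2 rose, by 0.71 ± 0.11, 0.78 ± 0.18 and 0.48 ± 0.12.

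Hedgehog genes fell in 6 of 9 tested cases and none rose (median −0.58; 6 and 0 without line E1.4, 3 and 0 without the line term). Besides Gas1, these were the transducer Smo (−0.49 ± 0.11), the factor Gli2 (−0.92 ± 0.21), the inhibitor Sufu (−0.58 ± 0.13), the receptor Ptch1 (−0.64 ± 0.18) and the co-receptor Cdon (−0.64 ± 0.23). Their median exonic length was 7691 bases. Of 11 genes of BMP and SMAD signalling, 5 fell and 2 rose (median −0.48; 5 and 1 without line E1.4, 2 and 2 without E2.2, 0 and 1 without the line term): the ligand Bmp4 (−1.41 ± 0.24), the Id factors Id2 (−0.81 ± 0.21), Id3 (−0.82 ± 0.22) and Id4 (−1.20 ± 0.22) and the inhibitor Smad6 (−0.91 ± 0.26) fell, and the inhibitors Skil (0.83 ± 0.15) and Smad7 (0.43 ± 0.11) rose.

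Immediate-early genes, which respond within minutes to growth and stress signals, were higher at 4 h: 13 of 27 rose and none fell (median 0.68; 11 and 0 without line E1.4). Beside Atf3 and Maff, Egr1 had 402, 452 and 365 CPM in hom AO against 146, 184 and 155 CPM in hom untreated (1.33 ± 0.23). Fosl1, an AP-1 subunit, rose by 1.42 ± 0.26, and Csrnp1 and Ier3 by 1.27 ± 0.16 and 1.25 ± 0.18. Myc had 407, 394 and 327 CPM in hom AO against 144, 143 and 159.9 CPM in hom untreated (1.34 ± 0.12), and in the list of 25 genes of nucleolar ribosome assembly and MYC 14 rose and none fell (median 0.38; 14 and 0 without line E1.4, 9 and 0 without the line term), with Nop58 at 0.69 ± 0.08 and Gnl3 at 0.90 ± 0.11. Among 15 feedback inhibitors of MAP kinases, 7 rose and 1 fell (median 0.35; 8 and 2 without line E1.4), led by Dusp5 (1.21 ± 0.16), Dusp8 (1.05 ± 0.16), Spry2 (1.01 ± 0.17) and Spry4 (1.42 ± 0.26), with Dusp7 lower (−0.50 ± 0.14).

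NF-κB targets and subunits rose in 11 of 28 tested cases and none fell (median 0.52; 11 and 0 without line E1.4, 7 and 0 without E2.2, 5 and 0 without the line term). Relb, a subunit, had 95.9, 80.4 and 53.3 CPM in hom AO against 29.4, 30.6 and 31 CPM in hom untreated (1.34 ± 0.23), and the chemokine Ccl2 243, 130.3 and 68.6 CPM in hom AO against 46.5, 43.7 and 39.7 CPM in hom untreated (1.74 ± 0.44). Line E2.9, which carried macrophage markers, was the lowest treated line in both genes, and 14 of 28 members rose without it. Of 40 interferon-stimulated genes, 1 rose and 2 fell (median −0.24; 0 and 0 without line E1.4, 1 and 0 without E2.2, 1 and 1 without E2.9). The 1 that rose, the chemokine Cxcl10, had 22.4, 41.5 and 18.3 CPM in hom AO against 4.93, 15.9 and 7.93 CPM in hom untreated (1.55 ± 0.41, edgeR adjusted p = 0.00687), and it did not pass without line E1.4 (1.26). Ifit1, a marker of interferon signalling, had 1.74, 5.78 and 1.34 CPM in hom AO and 1.35, 4.89 and 1.64 CPM in hom untreated (0.08 ± 0.76, edgeR adjusted p = 0.954). Ifnb1, the interferon β gene, had 0 counts in all 6 libraries, under a floor of 3 counts in each.

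Set directly against poly(I:C) in the same 3 lines, AO gave 2171 genes higher (16.2% of those tested) and 2471 lower (18.5%). Without line E1.4 it gave 2353 higher and 2768 lower of 13530 genes tested. In line E1.4 this difference sets the AO library shifted to short transcripts (−0.18 above) against a poly(I:C) library within −1.57 to −1.11. The part of transcript length in it was not tested. Both treatments are measured against the same untreated libraries, so only this direct difference is tested. Of the 40 interferon-stimulated genes, 33 were lower under AO and none higher, and of the 28 NF-κB genes 17 were lower and 1 higher. These group counts were taken with all 3 lines only. Cxcl10 averaged 27.4 ± 12.4 CPM in hom AO and 134 ± 80.3 CPM in hom poly(I:C) libraries (SD, n = 3 each), a log2 difference of −2.23 ± 0.36 SE. Stress genes stood on the other side: Ddit3 averaged 311 ± 157 CPM in hom AO and 47.9 ± 5.83 CPM under poly(I:C) (log2 difference 2.61 ± 0.26), Hmox1 differed by 2.69 ± 0.18, Flcn by 1.80 ± 0.14 and Tbk1 by 0.84 ± 0.13.

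Among 18 long non-coding RNAs, 7 rose and 5 fell (median −0.19; 6 and 5 without line E1.4, 6 and 2 without the line term). Neat1, the scaffold of nuclear paraspeckles, had 32.4, 37.6 and 23.1 CPM in hom AO against 129.1, 204 and 123 CPM in hom untreated (−2.29 ± 0.24), and Dnm3os, an antisense host of microRNAs, fell by 2.08 ± 0.22; if counting ignored strand, its reads cannot be told apart from those of Dnm3 on the opposite strand. Gas5 and 6 other host genes of small nucleolar RNAs rose, among them Snhg12, with 239, 69.9 and 86.9 CPM in hom AO against 44.1, 21.3 and 25.1 CPM in hom untreated (2.02 ± 0.21). These RNAs were highest in line E1.4 under AO; without that line Snhg12 and Snhg1 rose by 1.74 and 1.16, and Snhg5 (0.47) did not pass.

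The same treatment called 3055 genes in WT lines, or 22.9%, and 3671 in het lines, or 27.5%. Of the genes that rose in hom lines, 1197 also rose in WT lines, which is 61.3% of the hom list and 79.9% of the WT list, and of those that fell 1183 also fell in WT, 58.8% and 76% of the 2 lists; 1 gene was called in opposite directions, AY036118, named after its values were seen, which had 0 CPM in all 3 hom AO lines and 4.07, 0 and 0.378 CPM in hom untreated. With het lines the shared genes were 1322 higher (67.7% of the hom and 76.7% of the het list) and 1421 lower (70.7% and 72.9%), and none were opposite. The difference between the responses was tested for each gene as an interaction. No gene passed in hom minus WT or in hom minus het at an adjusted p under 0.05 in edgeR (0% called in each); 455 genes (3.4%) and 502 genes (3.76%) had an unadjusted p under 0.05, and DESeq2 called 1 gene in each (Gm5884 against WT and Gm49388 against het, named after their values were seen, with 0 and 6 counts over the 6 hom libraries). With no filter on low counts edgeR called 34 genes in hom minus WT and 39 in hom minus het, of which 30 and 35 were also in the filtered test, where they did not pass. Both sets hold CT010467.1, Gm8355 and Rn7s1, which among the 6 hom libraries were highest in the E1.4 AO library. The fit with no filter was not repeated without line E1.4. Of the 39 against het, the difference was above 0 in 18 and under 0 in 21. Those under 0 include mt-Co1 (−0.62, edgeR adjusted p = 0.000609 with no filter). Also picked from those under 0 are 4 stress and amino acid genes, named, like mt-Co1, after their values were seen. Chac1 had a hom minus het difference of −1.10 (edgeR adjusted p = 0.000135 with no filter). The others were Aldh1l2 (−0.78, adjusted p = 0.00336), Slc6a9 (−0.75, adjusted p = 0.0282) and Trib3 (−0.77, adjusted p = 0.0458). With the filter the edgeR adjusted p of these 4 genes was 0.952 and the unadjusted p 0.0704, 0.0739, 0.0898 and 0.242. The median SE of these differences was 0.23 and 0.22 on the log2 scale, which bounds the differences that 3 and 4 lines can show.

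Tbk1 itself changed by 0.57 ± 0.13 in hom, 0.59 ± 0.13 in WT and 0.46 ± 0.11 in het lines, so that hom minus WT was −0.02 ± 0.18 and hom minus het 0.11 ± 0.17. Sqstm1 rose by 1.43 ± 0.12 in hom, 1.43 ± 0.12 in WT and 1.38 ± 0.10 in het lines, with differences of −0.00 ± 0.16 and 0.05 ± 0.15. Optn rose by 0.75 ± 0.13 in hom, 0.67 ± 0.13 in WT and 0.75 ± 0.11 in het lines. Gdf15 rose by 3.23 ± 0.38, 3.04 ± 0.40 and 3.27 ± 0.34 in hom, WT and het lines. Gm10778, picked from the genes with the largest decrease in hom lines, changed by −2.49 ± 0.37 in hom lines against −0.80 in WT and −0.46 in het lines. The difference had an unadjusted edgeR p of 0.00205 against WT and 0.000254 against het and did not pass adjustment. With no filter on low counts it passed, at −1.73 against WT (edgeR adjusted p = 0.0217) and −2.07 against het (edgeR adjusted p = 0.000311). As its hom change chose it, these p-values are a description and not a test. Plk1 had a hom minus WT difference of −0.29 (unadjusted p = 0.0341) and Col5a1, a chain of type V collagen, one of −0.42 (unadjusted p = 0.0443). Neither passed adjustment, and 3.4% of all genes tested had an unadjusted edgeR p under 0.05 for hom minus WT. Across the genes called in hom lines, the median size of the log2 change was 0.60 in hom lines, 0.45 in WT and 0.44 in het lines. The genes were called on the hom values, so these medians are a description and not a test.

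**Figure D5:**
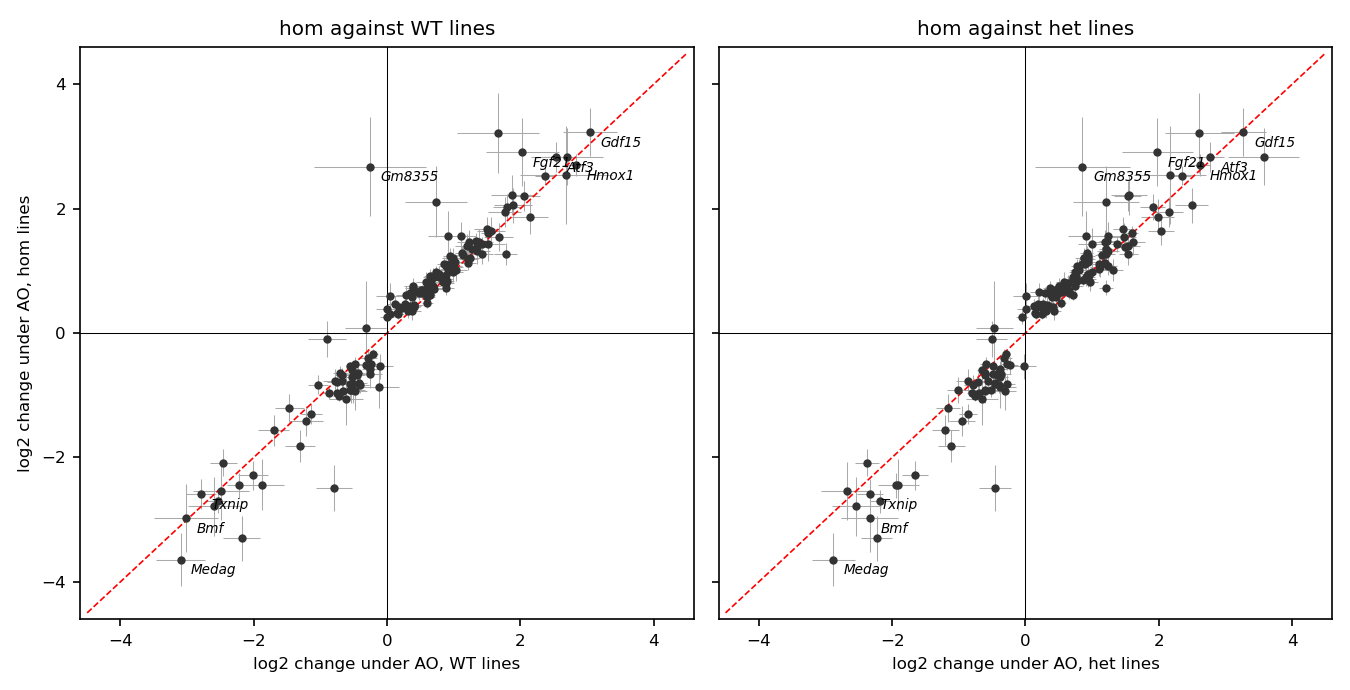
Log2 change with AO of the named genes in hom lines against that in WT lines and in het lines, each point 1 gene with SE bars and the dashed line marking equal change. Gdf15 (3.23 in hom, 3.04 in WT, 3.27 in het) and Sqstm1 (1.43, 1.43 and 1.38) lie on the line within their errors. No gene passed the test of the difference in the edgeR fit with the filter on low counts.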

How the data were processed

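RNA-seq libraries (TruSeq Stranded mRNA) were deposited as 1 table of RSEM expected counts per gene for each sample; per the submitters' processing notes the authors used STAR, RSEM and the mm10 build, with their versions not stated in those notes. The deposited expected counts were rounded to whole numbers, since 6.11% to 11.2% of values per library were not whole. Gene names and coordinates come from GENCODE vM21 (GRCm38), which matched 49326 of 49585 gene IDs, and promoters from RefSeq (GRCm38.p6), which matched 10078 of the 13364 genes tested. The 30 libraries without a density label, from 10 lines and 9 groups and with 3689144 to 14879227 counts each, were fitted together with edgeR 4.0.16 (R 4.3.3, limma 3.58.1): TMM, filterByExpr with a minimum count of 10 and a minimum total of 15, quasi-likelihood F test, a term for the line and 6 terms for treatment within genotype, 14 residual degrees of freedom, and Benjamini-Hochberg adjustment over all genes tested with a threshold of 0.05 and no fold limit. The line is in the main fit as a replicate block because each line was sampled under every treatment; deviations of libraries of the same line correlated at 0.345 to 0.782 over 30 pairs, 0.643 to 0.782 for hom untreated with hom AO. An SE is the log2 change divided by the square root of F. Levels are TMM-scaled CPM, and log2 ratios per line add 0.5 CPM.

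No hom AO or hom untreated library was a repeat of another in its group: chi-square per degree of freedom between pairs was 5.11 to 57.7. Other libraries and pairs across groups were not checked. In simulated data on 13364 genes for the hom AO comparison, the fit recovered 40, 32, 40 and 50 of 50 genes changed by −2, −1, 1 and 2 on the log2 scale, and 8 of 170 calls were false. The simulation changed 200 genes and drew the counts of each gene independently. It held no length shift particular to the E1.4 AO library, so it does not measure false calls under that shift. Named genes are the 10 largest changes per direction whose mean log2 CPM reached 1 and whose direction was shared by the 3 lines, the 4 smallest p in each list, the 6 smallest p per direction among differences that passed between genotypes, a set of 12 genes (Tbk1, Optn, Sqstm1, Hmox1, Gdf15, Fgf21, Atf4, Ddit3, Txnip, Arrdc4, Ifnb1 and Ifit1), and further list members given with their values. The libraries, the lists and the tests were chosen with earlier results of these data known. Alternatives were other size factors (RLE), no filter, DESeq2 1.42.0, no line term, hom libraries alone, the compared groups alone, no poly(I:C) libraries and each line left out.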

Additional observations from a re-analysis of the deposited data

Results flagged for a closer look

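Sdhb, the iron-sulfur subunit of respiratory complex II, drew attention because its ratio of AO to untreated was above 0 in every hom line and below 0 in every het line. It had 175, 107 and 116 CPM in hom AO (in the order E1.4, E2.2, E2.9) against 128, 96.0 and 106 CPM in the same lines untreated, a log2 change of 0.26 ± 0.10 SE that did not pass (edgeR adjusted p = 0.0729). The hom minus het difference in log2 change was 0.307, with an unadjusted edgeR p of 0.039, and it did not pass adjustment over all genes tested. Of all genes tested, 3.76% had an unadjusted edgeR p under 0.05 for hom minus het. Sdhb was picked by these same values, so its p is a description and not a test. Without line E1.4, whose AO and untreated libraries favour short transcripts, the hom change was 0.13. The part of transcript length in this difference was not tested.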

How the results depend on the processing

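The count of genes changed by AO in hom lines was 3965. It was 4009 with RLE size factors, 3880 with no filter, 3914 with DESeq2 and 4977 without the poly(I:C) libraries. It moved to 1749 without the replicate block, to 1318 with hom libraries alone and to 2408 with the compared groups alone, and lay between 2887 and 4105 when each hom line was left out. The direct difference between AO and poly(I:C) called 4642 genes, 2338 without the replicate block and 1942 with hom libraries alone, and 4153 to 5121 with a line left out. The hom minus WT difference called 0 genes, 1 with DESeq2 and 34 with no filter; hom minus het called 0, 1 with DESeq2 and 39 with no filter; both were 0 with any line left out. Of 160 named genes 152 passed in the main comparison, and none of the 152 was called in the opposite direction under any alternative. Of the 152, 31 did not pass without the replicate block and, in paired fits of fewer libraries, 26 with hom libraries alone and 11 with the compared groups alone. Leaving out E1.4, E2.2 or E2.9 lost 9, 8 and 6, no filter 3, RLE 2 and DESeq2 2. The cause of these moves was not tested beyond the fewer libraries that the restricted fits hold. With 3689144 to 5320969 counts in the hom AO libraries, genes under about 1 CPM rest on few reads.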

Other observations

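Genes of mitochondrial dynamics and biogenesis changed modestly in hom lines under AO. Of 22, 8 rose and 1 fell (median log2 change 0.18; 8 and 3 without line E1.4, 3 and 1 without E2.9, 4 and 1 without the line term). Tfam, which packages and transcribes mitochondrial DNA, had 124, 97.2 and 101 CPM in hom AO against 88.6, 74.8 and 76.1 CPM in hom untreated (0.42 ± 0.08), and Pprc1, a coactivator of biogenesis, rose by 0.49 ± 0.09. Dnm1l, the dynamin of mitochondrial fission, and its receptor Mff rose by 0.30 ± 0.08 and 0.31 ± 0.09.

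Of 23 tested genes of the unfolded protein response of the endoplasmic reticulum, 6 rose and 2 fell (median 0.08; 7 and 2 without line E1.4, 4 and 1 without the line term). Herpud1, a component of protein degradation at that membrane, had 258, 226 and 218 CPM in hom AO against 99.8, 83.2 and 82.1 CPM in hom untreated (1.41 ± 0.19). Atf6, a sensor of the response, rose by 1.31 ± 0.20, the chaperone Hspa5 by 0.69 ± 0.09 and its co-chaperone Dnajb9 by 1.11 ± 0.11. Of 19 cytosolic heat shock genes, 6 rose and 1 fell (median 0.09; 4 and 1 without line E1.4, 3 and 1 without E2.9, 2 and 0 without the line term), with Hspa4 at 0.41 ± 0.09 and Dnajb4 at −0.49 ± 0.10. Of 31 genes of cholesterol and fatty acid synthesis, 6 rose and 5 fell (median 0.04; 8 and 5 without line E1.4, 3 and 2 without E2.2, 3 and 5 without E2.9, 1 and 0 without the line term). Msmo1, a sterol oxidase, had 543, 456 and 470.1 CPM in hom AO against 217, 209 and 193 CPM in hom untreated (1.24 ± 0.12), while Dhcr7, a late enzyme of the same pathway, fell by 0.70 ± 0.15. In the aryl hydrocarbon receptor list of 7, Tiparp rose (1.54 ± 0.22), with 44.8, 195 and 331 CPM in hom AO against 27, 58.2 and 90.5 CPM in hom untreated, as did Cyp1a1 (2.54 ± 0.79), at 3, 15 and 26 counts in hom AO and 1, 1 and 12 in hom untreated. Nqo1 fell. The list's counts of 2 and 1 were 3 and 0 without line E1.4, 1 and 0 without E2.2 and 2 and 0 without E2.9, so Nqo1 did not pass without any 1 line.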
